A study of Mus musculus with 18 samples.

Results

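HOX genes encode homeodomain transcription factors that give cells along the head-to-tail axis of the embryo their positional identity. In mouse they lie in 4 clusters, Hoxa to Hoxd, and genes at the same place in different clusters, called paralogs, share a number. Low numbers lie at the 3′ end of a cluster and are the first to be used in time and the farthest forward in space. In the heart, HOX genes of paralog group 1 mark progenitors of the posterior second heart field, which adds cells to the outflow tract and the atria, and retinoic acid is a classical inducer of the 3′ HOX genes. Described here are the rows of a gene count table whose symbol is Hox, a letter from a to d and a number and nothing more: 39 of 23337 gene symbols, of which 11 were Hoxa, 10 Hoxb, 9 Hoxc and 9 Hoxd genes.

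The counts came from poly(A) RNA of mouse embryonic stem cells that were differentiating toward heart muscle. The samples were untreated cells of the line TBX5-FTA, strain A2Lox.cre, so a single line without any perturbed group, and they differed only in the day of harvest. Cells of days 5, 6 and 7 (D5, D6, D7) were labelled cardiac progenitor cells, and cells of days 8, 10 and 15 (D8, D10, D15) immature cardiomyocytes. There were 3 libraries a day, 18 in all, called a, b and c here, and the letters are only names. No label says whether these 3 are separate cultures, so the spread that p-values rest on may be technical. Total counts ran from 5257601 to 7122093 per library. Levels are given as CPM, each library's counts scaled by its total and its TMM factor, as mean ± SD over 3 libraries. Different genes are ranked by level per kb of exon. Shares of counts, sums over lists and other CPM values are not scaled by length. Differences are log2 fold changes ± SE from edgeR's quasi-likelihood test over all genes, with Benjamini-Hochberg adjusted p-values from the 13116 genes that passed its filter. A gene is called where that adjusted p is under 0.05.

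All 6 cardiomyocyte markers (Tnnt2, Myh6, Actn2, Ryr2, Ttn, Nkx2-5) rose from D5 to D15, where 40.3% of all genes tested rose, and markers of some other cell types rose beside them. The summed level of the cardiomyocyte markers ran from 183 to 216 CPM at D5 and from 2882 to 4862 at D15, and that of the 8 markers of fibroblasts and mesenchyme from 426 to 462 and from 38248 to 47313 CPM. The 6 epicardial and mesothelial markers and 6 of 7 endothelial markers rose as well. Of 5 smooth muscle markers, all tested, 2 rose and 3 fell, where 37.7% of all genes fell. Of 4 neural tube and hindbrain markers tested, 1 rose and 2 fell, and the tested endoderm and blood markers split evenly. Cardiomyocyte markers also differed within a day, from 291 to 677 CPM at D7 and from 543 to 1449 at D8. Paraxial mesoderm, a tissue rich in HOX RNA, was close to absent, with none of its 7 markers tested and a sum of at most 2.76 CPM in any library. Lists of other mesoderm reached higher sums, but these rested on few genes and do not show that such tissue was present. The 5 markers of intermediate mesoderm and kidney summed to day means of 0.656 to 9.24 CPM up to D10 and to 117 to 144 CPM at D15. Of these 5, Pax2 and Pax8 had no count at D15, and of the 3 tested, 1 rose and 2 fell from D5 to D15. The 5 limb and allantois markers summed to day means of 28.2 to 104 CPM. Nearly all of this was Fgf10 and Shox2, while Tbx4, Lmx1b and Pitx1 reached at most 1.06 CPM in any library. The part of this changing cell makeup in the HOX differences was not tested, and in bulk RNA fewer cells that use a gene and less RNA per cell cannot be told apart.

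The 4 clusters were far from equally used. Hoxb genes held 86.4% of the 26433 HOX counts, Hoxd genes 1.23% and Hoxc genes 0.144%. By paralog number, groups 1 to 3 held 75.1% of the counts, groups 4 to 8 24.4% and groups 9 to 13 0.484%, and 12 of the 16 genes of groups 9 to 13 had no count in any library. In all, 16 HOX genes had no count, 13 had counts but too few to be tested, and 10 were tested, among them 7 Hoxb genes (Hoxb1 to Hoxb6 and Hoxb8), Hoxd1 and Hoxd8. A gene without a count on a day could still stand at up to 0.140 CPM at D5 or 0.155 CPM at D6, the level that 3 counts over the libraries of the day would give, and these limits cover counting error only. On GRCm38 the Hoxb cluster lies at chr11:96194316-96368256, Hoxc at chr15:102921103-103036852 and Hoxd at chr2:74668310-74765142.

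**Figure D1:**
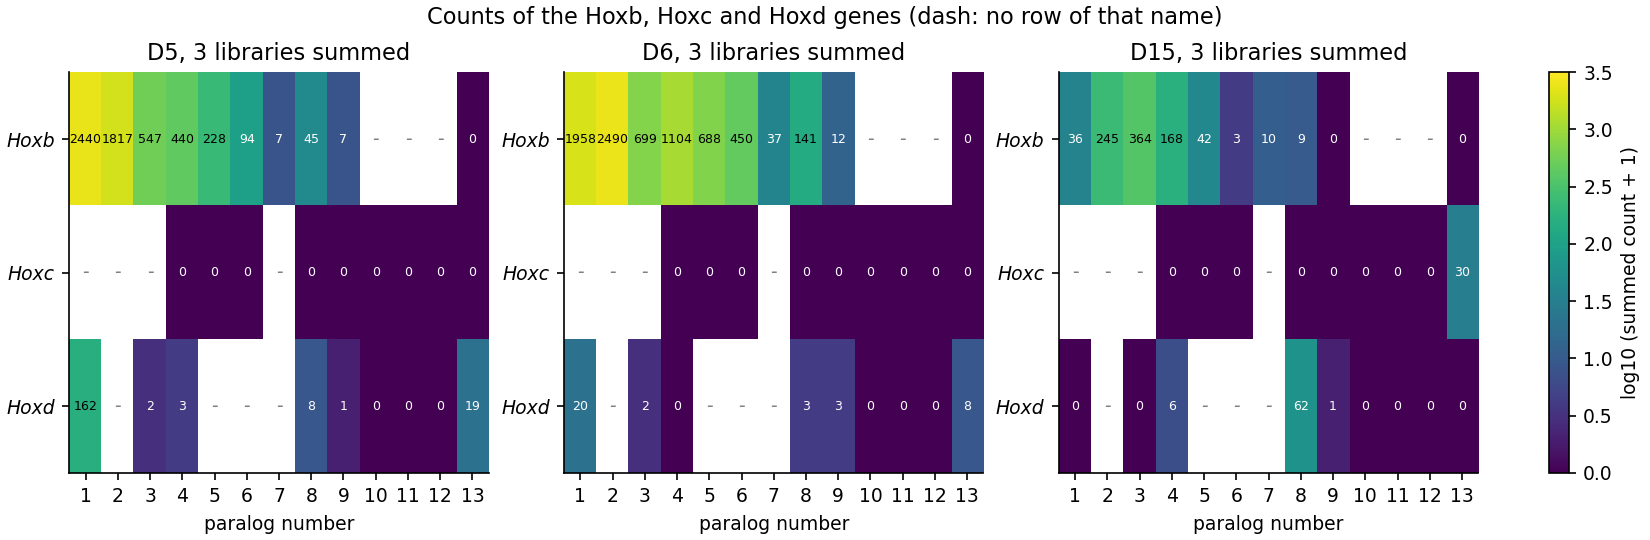
Counts of each Hoxb, Hoxc and Hoxd gene summed over the 3 libraries of D5, D6 and D15, by cluster (rows) and paralog number (columns). Color gives log10 of the summed count plus 1, the number in each cell is the count, and a dash stands where no row bears that name. Counts filled the 3′ side of the Hoxb row at D5 and D6, and nearly the whole Hoxc row stood at 0 or close to it.

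Upstream sequences are shown because they belong to genes with different courses: Hoxb1 (high at D5 and D6), Hoxb4 and Hoxb8 (highest at D6) and Hoxd8 (highest at D15). They are the 250 bases before the gene's start in RefSeq on GRCm38.p6, all on the plus strand, and 22 of the 39 HOX genes, with 24 promoters, matched an entry. Capitals mark letters that also occur in textbook binding motifs, searched on both strands. In Hoxb1 they mark TGATNNAT, the joint motif of PBX and HOX proteins. In Hoxb4 and Hoxd8 they mark AGGTCA, the core bound by nuclear receptors such as those for retinoic acid, which Hoxb4 holds on the other strand. In Hoxb8 they mark letters bound by CDX proteins, TTTATG once on each strand and then the variant TTTATT.
Hoxb1, chr11:96365508-96365757: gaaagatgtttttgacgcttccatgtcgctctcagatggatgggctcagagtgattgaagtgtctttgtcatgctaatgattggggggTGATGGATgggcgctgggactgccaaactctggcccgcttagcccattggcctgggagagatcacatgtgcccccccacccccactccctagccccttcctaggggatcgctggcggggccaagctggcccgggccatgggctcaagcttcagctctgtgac
Hoxb4, chr11:96318017-96318266: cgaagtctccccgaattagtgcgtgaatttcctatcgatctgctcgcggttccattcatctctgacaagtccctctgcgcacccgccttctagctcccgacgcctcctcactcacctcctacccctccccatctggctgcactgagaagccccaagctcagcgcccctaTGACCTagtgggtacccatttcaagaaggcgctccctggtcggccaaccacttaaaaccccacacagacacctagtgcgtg
Hoxb8, chr11:96281655-96281904: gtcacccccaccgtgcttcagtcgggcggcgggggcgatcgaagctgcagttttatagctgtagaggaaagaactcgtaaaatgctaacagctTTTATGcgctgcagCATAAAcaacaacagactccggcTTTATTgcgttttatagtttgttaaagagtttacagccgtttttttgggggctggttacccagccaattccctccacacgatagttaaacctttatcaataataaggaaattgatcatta
Hoxd8, chr2:74704365-74704614: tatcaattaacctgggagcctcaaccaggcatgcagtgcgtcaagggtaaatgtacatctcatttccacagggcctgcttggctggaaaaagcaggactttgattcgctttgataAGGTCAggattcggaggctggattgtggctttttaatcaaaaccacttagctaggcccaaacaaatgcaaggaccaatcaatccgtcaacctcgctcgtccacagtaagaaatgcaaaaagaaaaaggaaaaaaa
The match in Hoxb1 begins 162 bases before the start, that in Hoxb4 81 bases and that in Hoxd8 135 bases before it, and those in Hoxb8 157, 143 and 120 bases before it. Hoxb8 also held TGATNNAT on the other strand, 11 bases before its start and not capitalised, and TATAAA on the other strand in 2 places. Of all 32851 RefSeq promoters, 7.68% held TGATNNAT, 10.8% TTTATG, 18.1% TTTATT, 14.02% AGGTCA and 12.4% TATAAA. Among the 22 HOX genes these motifs were in 4, 5, 5, 6 and 4. The GLI motif GACCACCCA of the Hedgehog pathway was in 0.225% of all promoters and in 0 of the 22 HOX genes. No match overlapped another in these windows, and a match is a description of letters and does not show a bound site.

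**Figure D2:**
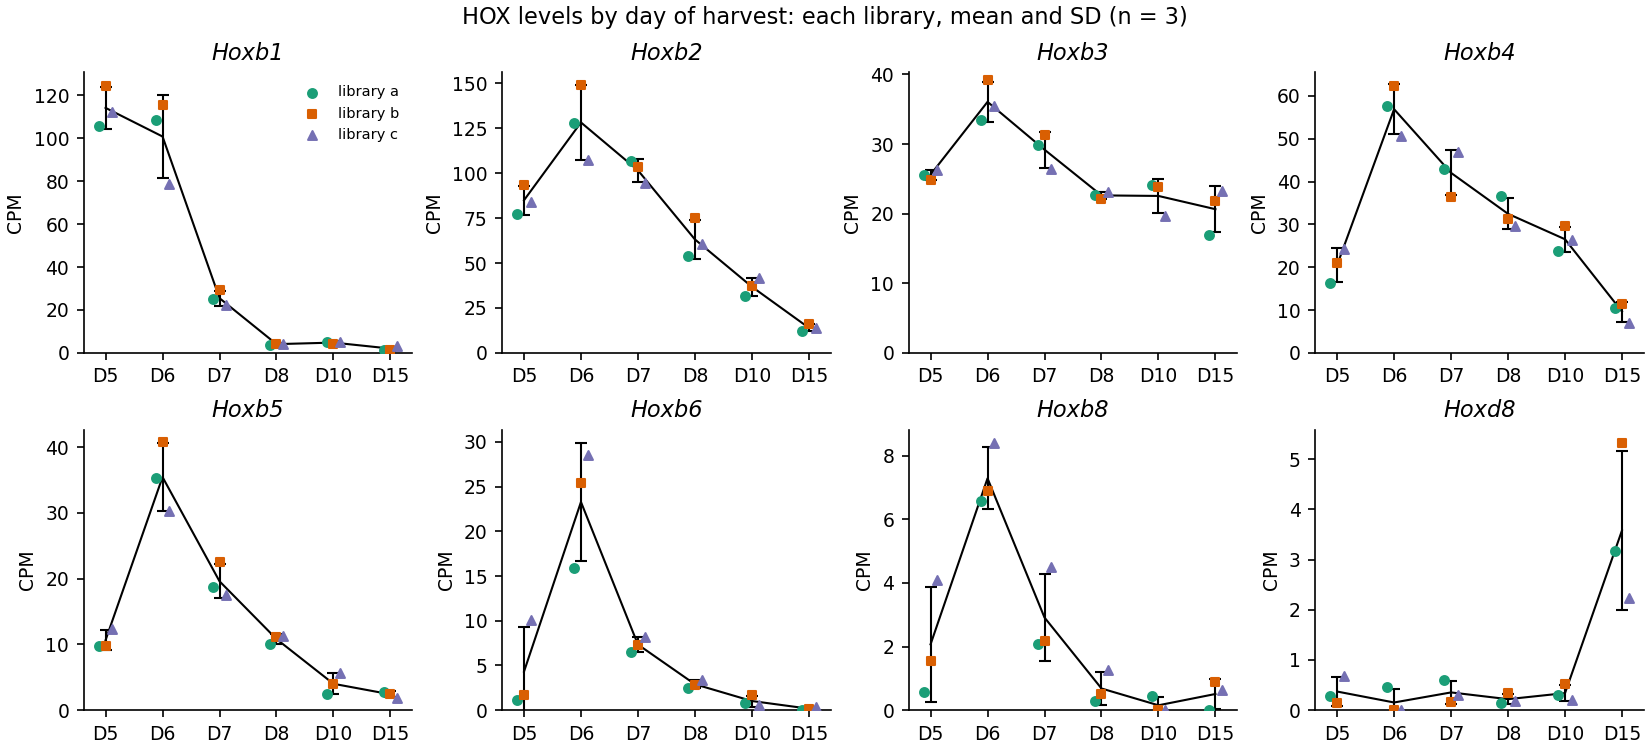
Level in CPM of 8 HOX genes (y axis) by day of harvest (x axis). Each point is a library, the line joins day means and bars are the SD of 3 libraries. Hoxb1 had its highest day mean at D5, Hoxb2 to Hoxb6 and Hoxb8 at D6 and Hoxd8 at D15, and of the Hoxb genes drawn Hoxb3 kept the largest part of its level to D15.

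Hoxb1 led at D5. This transcription factor gene of hindbrain and second heart field identity stood at 106, 125 and 112 CPM at D5, at 108, 115 and 78.8 at D6 and at 25.2, 29.2 and 22.2 at D7. It then stood at 3.63, 4.31 and 4.31 CPM at D8, at 5.07, 4.14 and 5.22 at D10 and at 1.59, 1.42 and 3.04 at D15. The D5 and D6 libraries overlapped, all others lay far below them, and the D8 and D10 libraries overlapped again. From D5 to D6 the difference was -0.18 ± 0.12 (95% interval -0.41 to 0.05, adjusted p = 0.247). Hoxb1 then fell by 1.98 ± 0.13 to D7 (adjusted p = 1.40e-11) and by 2.64 ± 0.20 to D8 (adjusted p = 1.06e-10). A further fall by 1.22 ± 0.31 came from D10 to D15 (adjusted p = 0.00182), and over the whole course Hoxb1 fell 55.2-fold (log2 fold change -5.79 ± 0.20, adjusted p = 4.30e-20).

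Hoxd1, the Hoxd paralog of Hoxb1, was much lower and left its D5 level earlier. It had 43, 38 and 81 counts at D5, which is 7.54 ± 3.07 CPM, 1.03 ± 0.0695 CPM at D6, 2 counts in all at D7, 1 at D8 and none at D10 or D15. Hoxd1 fell by 2.85 ± 0.43 from D5 to D6 (adjusted p = 8.57e-06), and at D15 it was at least 44.4-fold lower than at D5, taking 3 counts over the 3 libraries as the floor. Hoxd1 passed the filter through its D5 libraries, so a call across the course was bound to follow.

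Hoxb2 and Hoxb3 peaked at D6. Hoxb2, a regulator of hindbrain and neural crest patterning, stood at 77.3, 93.4 and 84.3 CPM at D5, at 128, 149 and 108 at D6 and at 107, 104 and 94.4 at D7. It stood at 54.2, 75.0 and 60.3 CPM at D8, at 31.8, 37.1 and 41.6 at D10 and at 12.2, 16.1 and 13.6 at D15. The D6 libraries were above all D5 and D7 libraries, and no harvest after D6 overlapped the one before. Hoxb2 rose by 0.59 ± 0.12 to D6 (adjusted p = 5.12e-04) and then fell at every step, by 0.34 ± 0.12 to D7 (adjusted p = 0.0363), by 0.69 ± 0.12 to D8, by 0.78 ± 0.14 to D10 and by 1.39 ± 0.17 to D15. The call from D6 to D7 was lost without library D6a, D6b, D7a, D7b or D7c, with log2 fold changes from -0.37 to -0.21 and adjusted p from 0.0526 to 0.21. Of its exon bases, 27.3% overlap the antisense RNA Hoxb3os, which makes its level uncertain.

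Hoxb3 changed least of the HOX genes tested. It stood at 25.6, 24.9 and 26.3 CPM at D5, at 33.5, 39.2 and 35.5 at D6 and at 29.9, 31.3 and 26.4 at D7. It stood at 22.7, 22.1 and 23.2 CPM at D8, at 24.1, 23.8 and 19.7 at D10 and at 16.9, 21.8 and 23.2 at D15. The D6 libraries were the highest, and those of D8, D10 and D15 overlapped each other. Hoxb3 rose by 0.49 ± 0.12 from D5 to D6 (adjusted p = 0.0017), had a difference of -0.30 ± 0.12 to D7 (adjusted p = 0.0515) and fell by 0.37 ± 0.12 to D8 (adjusted p = 0.03). At D15 its difference from D5 was -0.31 ± 0.13 (adjusted p = 0.0291), a call lost without library D5a (adjusted p = 0.0537), D5c (0.0714) or D15a (0.21) and in DESeq2 (0.0667). Antisense Hoxb3os covers 52.9% of the exon bases of Hoxb3, and 48.6% of its 50-base stretches are unique among annotated transcripts, so the value may hold reads of 2 genes that cannot be told apart here.

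Hoxb4 and Hoxb5, genes of the neck and upper trunk level, rose more from D5 to D6 than the genes on their 3′ side. Hoxb4 stood at 16.3, 21.0 and 24.3 CPM at D5, at 57.7, 62.3 and 50.7 at D6 and at 42.9, 36.4 and 46.8 at D7. It stood at 36.6, 31.2 and 29.6 CPM at D8, at 23.8, 29.5 and 26.3 at D10 and at 10.4, 11.5 and 7.04 at D15. The D6 libraries lay above all others, D7 and D8 overlapped only in that D8a lay just above D7b, and D15 lay below D5. Hoxb4 rose by 1.47 ± 0.14 to D6 (2.77-fold, adjusted p = 3.75e-09) and fell by 0.44 ± 0.13 to D7 (adjusted p = 0.0136). The steps to D8 (-0.37 ± 0.14, adjusted p = 0.0559) and D10 (-0.30 ± 0.15, adjusted p = 0.131) were not called, and Hoxb4 fell by 1.46 ± 0.17 from D10 to D15 (adjusted p = 5.64e-08). Without library D6b or D7b the step from D6 to D7 was no longer called (adjusted p = 0.0778 and 0.0905).

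Hoxb5 stood at 9.75, 9.78 and 12.4 CPM at D5, at 35.3, 40.7 and 30.3 at D6 and at 18.8, 22.5 and 17.5 at D7. It stood at 10.02, 11.1 and 11.3 CPM at D8, at 2.46, 3.97 and 5.61 at D10 and at 2.82, 2.48 and 1.92 at D15. The D6 libraries stood above all others, D8 was back in the range of D5, and D10 and D15 overlapped. Hoxb5 rose by 1.73 ± 0.17 to D6 (3.32-fold, adjusted p = 4.35e-09), fell by 0.85 ± 0.16 to D7, by 0.86 ± 0.18 to D8 and by 1.46 ± 0.23 to D10, and differed by -0.71 ± 0.31 to D15 (adjusted p = 0.0535).

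Hoxb6, a gene of the trunk level and of lateral plate mesoderm, stood at 1.16, 1.68 and 10.1 CPM at D5, at 15.9, 25.4 and 28.5 at D6 and at 6.55, 7.25 and 8.22 at D7. It stood at 2.47, 2.82 and 3.41 CPM at D8, at 0.768, 1.73 and 0.58 at D10 and at 0, 0.177 and 0.32 at D15. The D6 libraries were above all others, and the third D5 library stood far above the other D5 libraries and above the D7 ones. Hoxb6 rose by 2.41 ± 0.50 to D6 (adjusted p = 0.00171), the largest rise of a tested HOX gene between these days. The rise was 4.01 (adjusted p = 1.40e-09) without library D5c, and it was 2.40 and not called (adjusted p = 0.0672) when D5 and D6 were fitted without the other days. It fell by 1.66 ± 0.47 to D7 (adjusted p = 0.0153), a call lost without library D6c (adjusted p = 0.0534) or D7a (0.0562). At D15 it had 3 counts against 94 at D5, a ratio of 25.8 (95% counting interval 8.55 to 127), and the fitted log2 fold change of -4.52 ± 1.16 (adjusted p = 0.002) was -2.92 without library D5c (adjusted p = 0.00105).

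Hoxb8, at the end of the expressed stretch of the cluster, was lower but followed the same course. It stood at 0.582, 1.54 and 4.09 CPM at D5 and at 7.29 ± 0.975 at D6, 2.91 ± 1.37 at D7, 0.682 ± 0.509 at D8, 0.154 ± 0.266 at D10 and 0.509 ± 0.457 at D15. Hoxb8 rose by 1.79 ± 0.49 to D6 (adjusted p = 0.00654) and by 2.75 (adjusted p = 3.89e-04) without library D5c. It fell by 1.32 ± 0.48 to D7 (adjusted p = 0.039), a call lost in DESeq2 (adjusted p = 0.0612) and without any of libraries D6a, D6b, D6c, D7a or D7b (adjusted p from 0.0658 to 0.136). The fall by 1.99 ± 0.77 from D5 to D15 (adjusted p = 0.0199), with overlapping libraries, was lost without library D5c (-1.03, adjusted p = 0.245) or D15a (adjusted p = 0.0783). Hoxb7 and Hoxb9, too low to be tested, had 7, 37, 19, 12, 2 and 10 counts and 7, 12, 26, 6, 10 and 0 counts from D5 to D15, so Hoxb7 was highest at D6 and Hoxb9 at D7, and Hoxb13, which lies apart from the others, had none.

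The excess of Hoxb6 and Hoxb8 in library D5c was singled out after its values were seen. Among 11364 genes with at least 2 CPM at D5 in the mean, Hoxb6 was the gene with the largest excess of D5c over the other D5 libraries, 5.51-fold with 0.5 CPM added to each level, and Hoxb8 was next at 2.94-fold. Only 10 genes in all were 2-fold or more above, and the library stood 11.5% of the way from D5 to the D6 mean over all genes, against 4.82% and 5.23% for the others. Hoxd1, which fell from D5 to D6, was highest in the same library. Hoxb1 in D5c lay between the other D5 libraries.

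**Figure D3:**
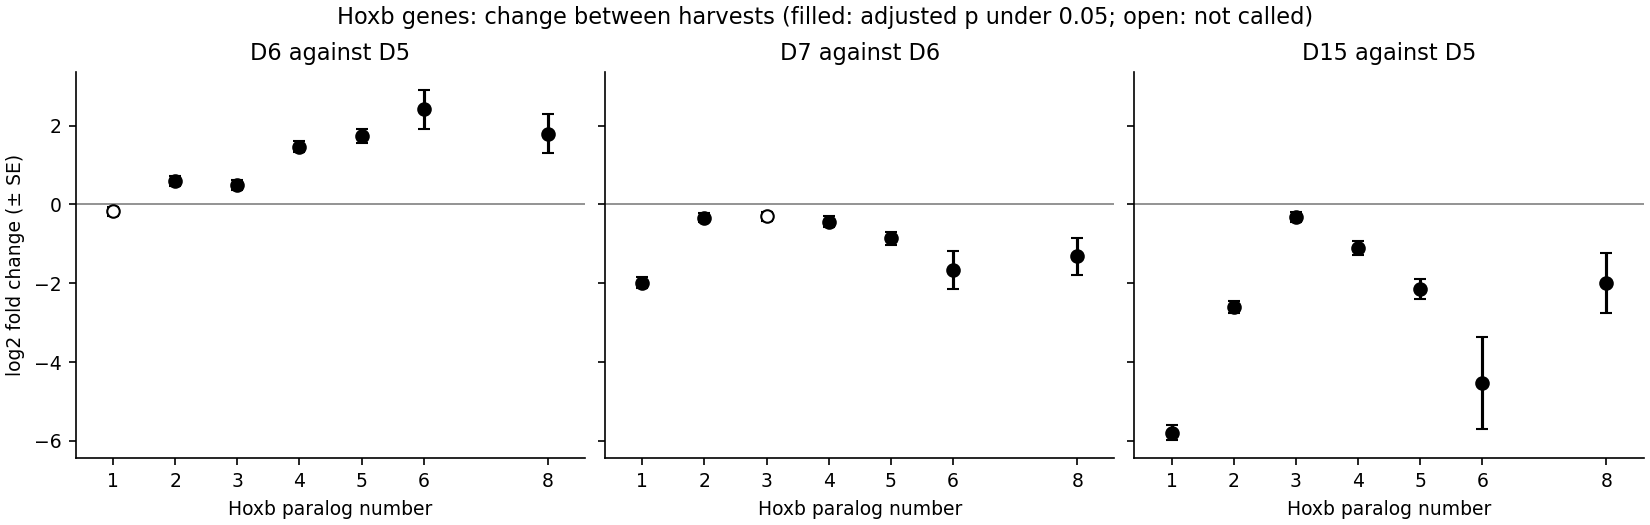
Log2 fold change (y axis, bars are SE) of the tested Hoxb genes by paralog number (x axis) for D6 against D5, D7 against D6 and D15 against D5. Filled points had an adjusted p under 0.05 and open points did not. From D5 to D6 values ran from -0.18 for Hoxb1 to 2.41 for Hoxb6. From D5 to D15 the smallest fall was that of Hoxb3, at 0.31.

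From D5 to D6 the size of the difference followed the order of the genes along the Hoxb cluster up to Hoxb6, with the exception of Hoxb3. In the order of the chromosome, from the 3′ end, the values were -0.18, 0.59, 0.49, 1.47, 1.73 and 2.41 for Hoxb1 to Hoxb6 and 1.79 for Hoxb8. Intervals of 95% ran from 0.26 to 0.73 for Hoxb3 and from 1.19 to 1.75 for Hoxb4 and did not overlap, while those of Hoxb4, Hoxb5, Hoxb6 and Hoxb8 overlapped each other. Of the 7 Hoxb genes tested, 6 rose and 0 fell between these days, where 18.2% of all genes rose and 16.4% fell (34.6% called). The median over the 7 was 1.47 against 0.01 over all genes tested. These genes are those that passed the filter, not the cluster as a whole.

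From D6 on the direction was downward. Of the 7 tested Hoxb genes, 6 fell from D6 to D7 (15.3% of all genes fell, 30.4% called), with a count from 3 to 5 when a library was left out, 3 without D6b, D7a or D7b. From D7 to D8, 5 fell (11.6% of all genes, 24.2% called), and 3 without D8b. From D8 to D10, 2 fell, Hoxb2 and Hoxb5 (13.9% of all genes, 31.2% called). From D10 to D15, 3 fell, Hoxb1, Hoxb2 and Hoxb4 (24.4% of all genes fell, 26.4% rose, 50.8% called). None of the 7 was called as higher at any step after D6. The step from D7 to D8 lost the call of Hoxb3 without D7a, D7b, D8a, D8b or D8c and that of Hoxb8 (fall by 2.12 ± 0.69, adjusted p = 0.0259) without D7c, D8a or D8b. Between the labelled stages, D8, D10 and D15 against D5, D6 and D7, all 7 fell (37.8% of all genes fell, 77.1% called), with a median of -2.06 against 0.01 over all genes. From D5 to D15 all 7 fell as well (37.7% of all genes fell, 40.3% rose, 78.0% called), with a median of -2.15 against 0.03, and from 5 to 7 fell when a library was left out. Across the 6 days all 7 were called, where 88.9% of all genes were.

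**Figure D4:**
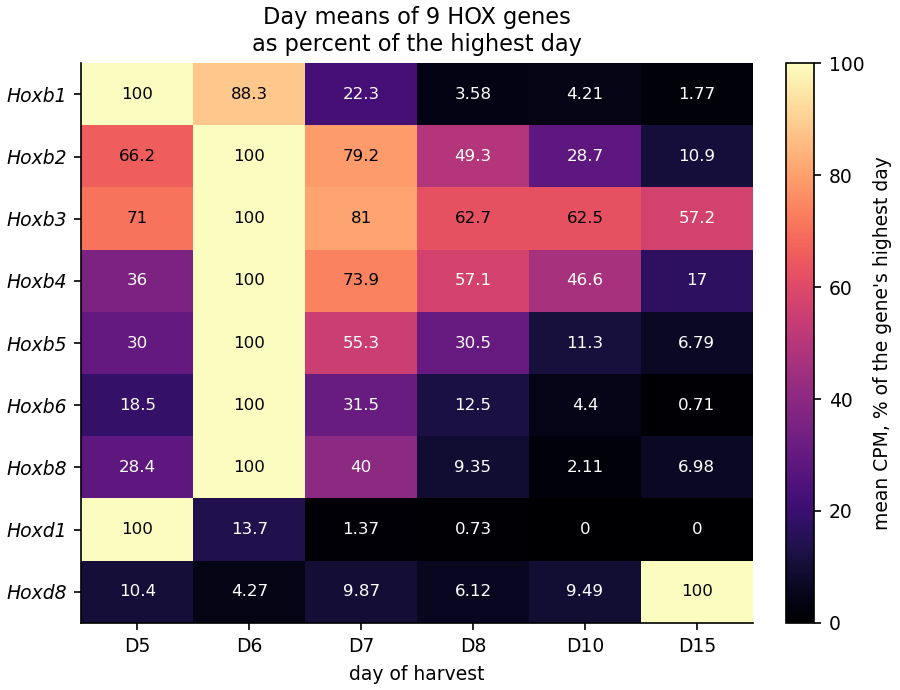
Day mean CPM of 9 HOX genes (rows) as percent of the gene's own highest day, by day of harvest (columns), with the percent in each cell. Hoxb1 and Hoxd1 had their 100% at D5, Hoxb2 to Hoxb6 and Hoxb8 at D6 and Hoxd8 at D15. At D15 Hoxb3 held 57.2% and Hoxb1 1.77% of its highest day.

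Hoxd8 went the other way. It had 2, 1 and 5 counts at D5, between 0 and 4 counts per library from D6 to D10, and 18, 30 and 14 counts at D15. This is 0.371 ± 0.28 CPM at D5 and 3.58 ± 1.58 CPM at D15, and each D15 library lay above every other library. Hoxd8 rose by 3.18 ± 0.60 from D5 to D15 (adjusted p = 1.70e-05) and by 3.30 ± 0.64 from D10 to D15 (adjusted p = 6.69e-05). It passed the filter through its D15 libraries, so that a call was bound to follow.

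Small counts at D15 also appeared in other clusters, in genes too low for the main test. Hoxc13, known from hair and nails, had 9, 15 and 6 counts at D15 against 0 at D5 and 5 over the other days together. With 3 counts put at D5 it was 12.2-fold higher at D15, while the other 8 Hoxc genes had at most 2 counts each over all libraries. Hoxa4 and Hoxa5 had 8 counts each at D15 and none at D5, which is 3.24-fold higher with 3 counts put at D5. By library the D15 counts were 5, 0 and 3 for Hoxa4 and 2, 4 and 2 for Hoxa5, so library D15b had no Hoxa4 count. In the fit without the filter, Hoxc13 (adjusted p = 3.02e-05), Hoxa4 (0.018) and Hoxa5 (0.0157) were called as higher at D15 than at D5. Hoxd13 had 19 counts at D5, 8 at D6 and none afterwards, and Hoxa2 went from 30 counts at D5 to 4 at D15. In the same fit, Hoxd13 (adjusted p = 0.00244), Hoxa2 (0.00405) and Hoxb9 (0.0305) were called as lower. Apart from these and from Hoxb7 and Hoxb9, whose counts are given above, the untested HOX genes had at most 11 counts on any day. The genes named from the fit without the filter were singled out by these same counts, so their calls add no separate support. The share of all genes called in that fit is not given here.

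Per kb of exon, Hoxb1 was the most abundant HOX RNA at D5, at 49.2 ± 4.15 CPM per kb, and beyond the range of every Hoxb and Hoxd gene. Among these, Hoxb2 was next at 24.4 ± 2.32, and Hoxb4 followed at 7.99 ± 1.56, a place it lost to Hoxb3 (6.02 ± 0.169) when the longest transcript was taken as the length, and from there downward neighbours in the order overlapped. At D6 Hoxb1 (43.4 ± 8.35) and Hoxb2 (36.8 ± 5.98) overlapped, and Hoxb4 (22.2 ± 2.28) lay below both. From D7 to D10 the order was led by Hoxb2 and then Hoxb4. At D10 these overlapped, at 10.6 ± 1.41 and 10.3 ± 1.12 CPM per kb. At D15 Hoxb3 (4.86 ± 0.773), Hoxb2 (4.01 ± 0.574) and Hoxb4 (3.76 ± 0.909) overlapped each other.

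**Figure D5:**
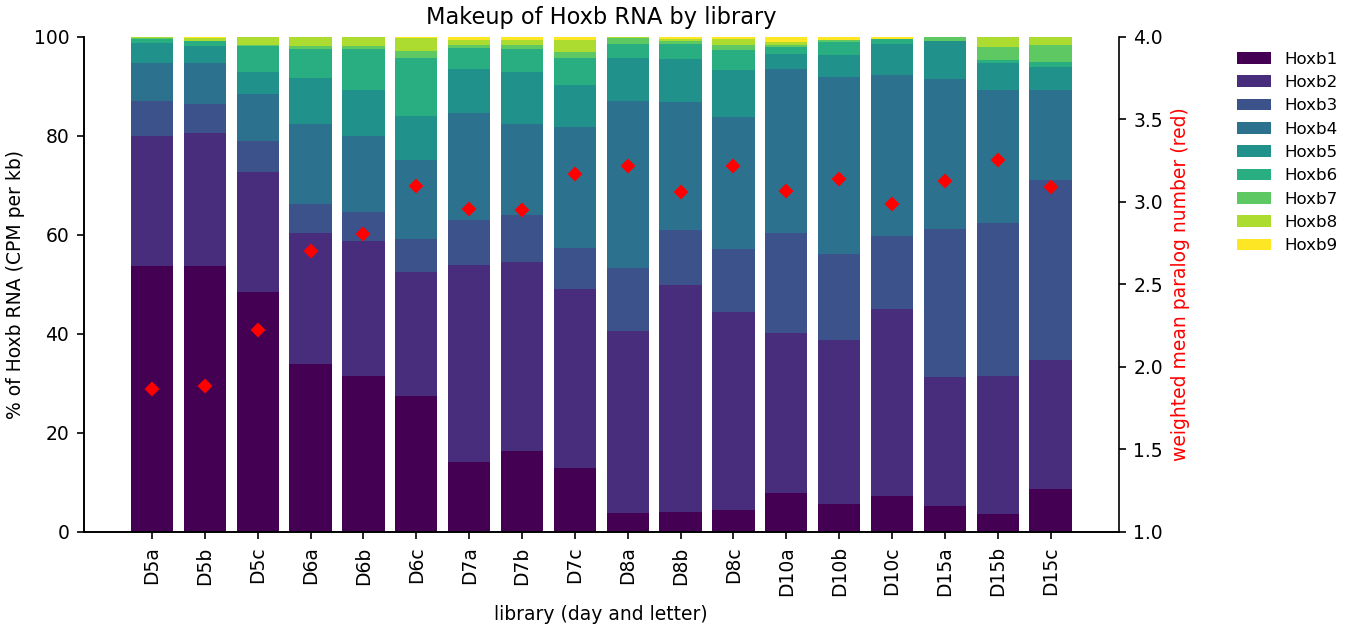
Share of each Hoxb gene in the summed Hoxb level (left axis, percent of CPM per kb) in each of the 18 libraries (x axis, day and letter), and the mean paralog number weighted by these shares (red, right axis). The share of Hoxb1 ran from 48.5% to 53.8% at D5 and from 3.71% to 4.31% at D8. The mean paralog number was 1.99 at D5 and at least 2.87 on the later days.

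The makeup of Hoxb RNA therefore moved toward higher numbers from D5 to D6, while its total rose to D6 and fell after it. Summed Hoxb RNA was 263 ± 22.8 CPM at D5, 391 ± 49.1 at D6, 231 ± 6.72 at D7, 138 ± 9.13 at D8, 96.6 ± 6.32 at D10 and 49.9 ± 5.52 at D15. The mean paralog number, each gene weighted by its CPM per kb, was 1.99 ± 0.2 at D5, 2.87 ± 0.206 at D6, 3.02 ± 0.126 at D7, 3.16 ± 0.0922 at D8, 3.06 ± 0.0746 at D10 and 3.16 ± 0.0851 at D15. It was 1.87, 1.88 and 2.22 in the D5 libraries, all below the lowest D6 library at 2.70. From D6 on the days overlapped, with D6c at 3.10 above D7a at 2.96 and D7b at 2.95. The ratio of Hoxb4 to Hoxb1 counts lay between 0.154 and 0.216 at D5, between 0.532 and 0.644 at D6, between 1.25 and 2.11 at D7 and between 6.88 and 10.1 at D8, without overlap. It did not rise further, with 4.7 to 7.1 at D10 and 2.3 to 8.1 at D15, both overlapping D8. The ratio of Hoxb6 to Hoxb5 counts was lower at D8 than at D6. It lay between 0.450 and 0.942 at D6 and between 0.322 and 0.469 at D7, which overlapped. At D8 it lay below both, between 0.246 and 0.302, and at D10 between 0.103 and 0.435, on both sides of the D8 range. The share of Hoxb3 reached from 29.9% to 36.3% at D15, and without Hoxb3, which overlaps Hoxb3os, the mean paralog number was 1.92 at D5 and 3.23 at D15. Hoxb genes held 75.3% ± 1.42 of all HOX CPM at D5, from 90.1% to 95.1% in the day means of D6 to D10 and 81.8% ± 4.36 at D15.

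HOX proteins bind DNA with TALE cofactors, and of these 8 of 9 were tested. Between D5 and D15, 5 fell and 2 rose, where 37.7% of all genes fell and 40.3% rose (78.0% called), and the median was -0.62 against 0.03 over all genes. Pknox2 fell by 2.58 ± 0.19 (30.3 ± 1.91 to 5.05 ± 1.15 CPM, adjusted p = 4.40e-13), Meis1 by 0.77 ± 0.11 (adjusted p = 2.42e-07) and Pbx2 by 0.46 ± 0.06 (adjusted p = 1.68e-07). Pknox1 rose by 0.71 ± 0.12. The cofactor RNAs together stayed between 745 and 1098 CPM in every library, while HOX RNA amounted to 349 ± 26.1 CPM at D5 and 61.0 ± 5.84 at D15.

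Of the 8 axial activators of HOX genes, 2 were tested, and 1 of them was called from D5 to D15. Nr6a1, a nuclear receptor needed for the trunk of the embryo, fell by 5.82 ± 0.17 from D5 to D15 (204 ± 3.76 to 3.53 ± 1.61 CPM, adjusted p = 2.15e-18). Gdf11, a signal of the TGF-beta family that acts on trunk and tail patterning, did not differ by the test from D5 to D15 (0.05 ± 0.26, adjusted p = 0.859) but stood higher in between, at 4.19 ± 1.04 CPM at D5, 9.20 ± 1.42 at D6, 15.7 ± 2.24 at D8 and 4.33 ± 1.41 at D15. It rose by 1.14 ± 0.23 from D5 to D6 (adjusted p = 2.44e-04) and fell by 1.67 ± 0.23 from D10 to D15 (adjusted p = 4.61e-07). Cdx1, Cdx2, Cdx4, T and Wnt3a, known from the growing tail end of the embryo, each stood at a day mean of at most 0.66 CPM on every day.

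The retinoic acid pathway had 15 of 18 genes tested, and from D5 to D15 7 were higher and 7 lower, with a median of -0.12, near the even split over all genes (40.3% higher, 37.7% lower). The synthesis enzyme gene Aldh1a2 stood at 13.3 ± 1.44 CPM at D5, 0.984 at D6, 0.309 at D7, 2.51 at D8, 90.6 at D10 and 198 ± 23.7 at D15 (D15 against D5: 3.89 ± 0.16, adjusted p = 5.23e-16). Its 2 lowest days, D6 and D7, were the 2 highest days of Hoxb4, Hoxb5 and Hoxb6. Whether these courses are linked was not tested. Aldh1a1, another enzyme of this family, whose older symbols include Aldh1a2, rose by 9.08 ± 0.22 (adjusted p = 1.18e-20) and the receptor gene Rxra by 0.92 ± 0.08 (adjusted p = 2.97e-11). From D5 to D6, 2 pathway genes rose and 6 fell, where 18.2% of all genes rose and 16.4% fell.

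Polycomb proteins keep HOX clusters silent and MLL complexes keep them active. Of 17 Polycomb genes and H3K27 demethylase genes, all tested, 11 fell and 4 rose from D5 to D15 (37.7% and 40.3% of all genes, 78.0% called), with a median of -0.43. Ezh2, the methyltransferase, fell by 1.81 ± 0.07 (192 ± 11.7 to 54.5 ± 3.95 CPM, adjusted p = 3.05e-19), Cbx2 by 2.19 ± 0.09 and Rnf2 by 0.91 ± 0.07. Phc1 fell from 124 ± 6.43 to 43.7 ± 5.3 CPM (adjusted p = 6.41e-16), and Ezh1, Jarid2 and Ring1 rose by 0.44 to 0.50. Of 9 genes of MLL complexes and their partners, 6 fell and 2 rose (37.7% and 40.3% of all genes, 78.0% called), with a median of -0.46. Ash2l fell by 1.65 ± 0.08 (adjusted p = 9.00e-18), Psip1 by 1.35 ± 0.06 and Wdr5 by 1.01 ± 0.08, and Dot1l rose by 0.60 ± 0.09 and Mllt3 by 0.59 ± 0.21. Between D5 and D6, 3 Polycomb genes were higher and 4 lower, and 0 MLL genes were higher and 2 lower, where 34.6% of all genes were called.

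Of 14 tested genes around the clusters, 8 fell and 5 rose from D5 to D15 (37.7% and 40.3% of all genes, 78.0% called), with a median of -0.65. Genes of this list lie up to 775.7 kb from the nearest HOX gene, so not all of them flank a cluster. Cbx1, 420.9 kb from Hoxb1, fell by 1.24 ± 0.08, Cbx5, 154.7 kb from Hoxc4, by 0.79 ± 0.06 and Lnpk, 88.9 kb from Hoxd13, by 0.98 ± 0.09. Calcoco1, 198.9 kb from Hoxc13, rose by 0.63 ± 0.09. Skap1, the next gene after Hoxb1 among these at 96.3 kb, was chosen after its values were seen: it went from 6.49 CPM at D5 through 3.04 at D6 and 0.662 at D7 to 0.0591 at D15, and it fell by 6.41 ± 0.72. The homeobox genes Evx1 and Evx2 at the 5′ ends of Hoxa and Hoxd were not tested, with day means of at most 0.367 CPM.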

How the data were processed

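Poly(A) RNA of 18 samples was sequenced from libraries of the TruSeq RNA v2 kit as single-end reads of 50 bases, per the labels' protocols, which call the reads stranded. Reads were aligned with STAR to mm10, per the submitters' processing notes. Their versions and how reads were counted (tool, annotation, strand setting) are not given in the sources used here. Raw read counts per gene symbol, as deposited by the authors, were used as whole counts. Columns were matched to samples by day, and 3 columns that match no sample were not used. No pair of libraries of a day was a copy of another (chi-square over degrees of freedom 2.21 to 9.23 for genes with at least 20 counts).

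Counts of all genes were fitted with edgeR 4.0.16 in R 4.3.3 (filterByExpr by day with a minimum count of 10, TMM, robust glmQLFit, a mean per day, 12 residual degrees of freedom) and tested with glmQLFTest; the code was tested on simulated data. The SE is the log2 fold change without shrinkage over the square root of F, and intervals of 95% are 1.96 SE. Lower bounds put 3 counts over a group without counts and take the counts of the other group as exact, so its counting error is left out. Ratios with 1 to 3 counts carry an exact binomial 95% interval. Depth limits precision most for the HOX genes with under 10 CPM. Gene models are GENCODE M21, promoters RefSeq GRCm38.p6. The fit was repeated with RLE factors, upper quartile factors, DESeq2 1.42.0, no filter, 1 CPM in 9 libraries, only the days compared, each library left out, and the longest transcript as length.

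Values per library are given for HOX genes with a day mean of at least 20 CPM, and others by day or by summed counts. Of the other lists, genes called for D15 against D5 with at least 5 CPM over all libraries were named, at most 4 a list by smallest p, plus exceptions to the list's direction. The HOX genes and the lists were chosen with earlier results of these data known. One tested HOX gene and some genes of the other lists are not reported here singly, though counts and sums over a list include them.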

Additional observations from a re-analysis of the deposited data

How the results depend on the processing

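No paired analysis was possible because the columns carry a running number and no replicate number. Of 923 alternative values of single HOX genes, 878 were called or not called as in the main fit, 30 lost their call and 15 gained one. None that was called changed sign, while 12 of the 878, called in neither fit, did. Without the filter on low counts, 23 HOX genes were tested, and 17 were called across the 6 days, 16 from D5 to D15 and 7 from D10 to D15. In the main fit these were 10, 10 and 4, where 88.9%, 78.0% and 50.8% of all genes were called. More genes were tested without the filter, and the share of all genes called there is not given here. With each library left out in turn, counts of called HOX genes ran from 10 to 12 across days, from 9 to 11 for D15 against D5, from 9 to 12 between the stages, from 8 to 9 for D6 against D5, from 5 to 7 for D7 against D6 (8 with all libraries), from 4 to 6 for D8 against D7, stayed at 3 for D10 against D8 and ran from 4 to 5 for D15 against D10. With all libraries, 77.1% of all genes were called between the stages. At single steps the share was 34.6% to D6, 30.4% to D7, 24.2% to D8, 31.2% to D10 and 50.8% to D15. The lowest count of HOX genes for D7 against D6, 5, came without D6b, D7a or D7b, and the cause was not tested. Hoxd8 between the stages (1.19 ± 0.59, adjusted p = 0.0615) was called without D5c, D6a, D7a or D15c and in DESeq2 (adjusted p from 0.008 to 0.0464). Scaling by RLE or upper quartile factors moved the median of all genes by at most 0.06. With the longest transcript as length, 5 places in the order of levels per kb differed at D5, 0 at D6, 2 at D7, 0 at D8, 2 at D10 and 3 at D15. Leaving out Hoxb3, chosen after seeing the data, moved the mean paralog number of Hoxb RNA by less than its SD on each day. Depth leaves Hoxb8, Hoxd1, Hoxd8 and the untested genes with wide intervals.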

Other observations

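Library D6c held the highest Hoxb6 and Hoxb8 levels of any library, at 28.5 and 8.40 CPM, and the lowest Hoxb1, Hoxb2, Hoxb4 and Hoxb5 levels of the D6 libraries, at 78.8, 108, 50.7 and 30.3 CPM. Its mean paralog number was 3.10, against 2.70 and 2.80 in the other D6 libraries. Among the D7 libraries, D7c likewise held the highest Hoxb6 and Hoxb8 levels, at 8.22 and 4.50 CPM, the lowest Hoxb1 level, at 22.2 CPM, and the highest mean paralog number, at 3.17. Over all genes, D7c had 82 genes that stood 2-fold or more below the other D7 libraries, and D6c had 48 below the other D6 libraries. This was not particular to them, as D8c, D10c and D15c had 126, 199 and 122 such genes. In turn D7a, D8a, D10a and D15a had 34, 70, 87 and 90 genes 2-fold or more above. The letters follow the order of the count columns, and why this recurs was not tested.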
